A study of Mus musculus with 30 samples.

Results

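Wild-type dendritic cells that had been given apoptotic Jurkat cells for 4 h were compared with wild-type dendritic cells given the same cells for 30 min. The libraries were assigned by their labels, 3 in each of these groups and 6 of the 30 in the series. All 14808 genes that passed the filter on low counts were tested. The dendritic cells were mouse bone marrow cells grown in culture with FLT3L at 200 ng/ml and taken on day 6 to 7, and RNA was sequenced from whole cultures. The other groups of the series are untreated wild-type cells, wild-type cells given ovalbumin (OVA) protein for 30 min or 4 h, and Rubcn knockout cells in the same 5 conditions, each with 3 libraries. Both groups compared here had received FLT3L and apoptotic Jurkat cells, so their labels differ only in the length of exposure, and neither is an untreated state. Whether the groups shared a culture or a day is not stated. Jurkat is an established human T-cell leukaemia line, and the values are counts on mouse genes. The series title places the study in cross-presentation and its limitation by non-canonical autophagy. The titles do not say whether replicates came from separate mice or cultures. The p-values therefore measure a spread between libraries, estimated over all 30, that may be technical.

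FLT3L cultures of bone marrow yield plasmacytoid dendritic cells together with conventional dendritic cells. Dendritic cells take up dying cells through receptors for exposed phosphatidylserine, digest them in phagosomes, and can load peptides from them onto MHC class I, which is cross-presentation. Toll-like receptors and cytosolic sensors that meet nucleic acids or microbial products signal through NF-kB and interferon regulatory factors to cytokine genes and to type I interferon, and secreted interferon then acts through its receptor on interferon-stimulated genes. RUBCN, the product of Rubcn, takes part in LC3-associated phagocytosis, a non-canonical use of the autophagy machinery on phagosomes.

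Promoters of 4 genes are shown because these genes stand for the steps described first: Ifnb1 encodes interferon beta, Cxcl10 a chemokine that draws activated T cells, and Ifit1 and Rsad2 antiviral proteins made in response to interferon. Each sequence is the 250 bases before the RefSeq start of the gene in GRCm38.p6, read 5′ to 3′ on the gene's strand. Capitals mark matches to the interferon response element core GAAANNGAA or to the NF-kB consensus, searched on both strands. Ifnb1 and Cxcl10 were searched for both motifs, and Ifit1 and Rsad2 for the interferon response element core.
Ifnb1, chr4:88522795-88523044, minus strand: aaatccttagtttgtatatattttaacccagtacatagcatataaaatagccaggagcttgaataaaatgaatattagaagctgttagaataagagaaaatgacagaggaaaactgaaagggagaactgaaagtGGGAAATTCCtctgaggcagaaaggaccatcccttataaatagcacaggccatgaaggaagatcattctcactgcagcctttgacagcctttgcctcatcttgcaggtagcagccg
Cxcl10, chr5:92348890-92349139, minus strand: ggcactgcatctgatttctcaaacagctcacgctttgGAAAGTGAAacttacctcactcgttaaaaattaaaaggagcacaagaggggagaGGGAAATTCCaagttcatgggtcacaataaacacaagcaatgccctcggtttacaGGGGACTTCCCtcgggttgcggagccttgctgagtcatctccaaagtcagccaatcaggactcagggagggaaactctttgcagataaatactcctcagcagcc
Ifit1, chr19:34640639-34640888, plus strand: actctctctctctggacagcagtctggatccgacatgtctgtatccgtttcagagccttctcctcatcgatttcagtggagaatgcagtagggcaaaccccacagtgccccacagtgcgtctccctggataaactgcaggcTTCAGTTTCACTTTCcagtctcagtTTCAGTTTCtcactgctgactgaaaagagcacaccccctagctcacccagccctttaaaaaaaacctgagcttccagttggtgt
Rsad2, chr12:26456453-26456702, minus strand: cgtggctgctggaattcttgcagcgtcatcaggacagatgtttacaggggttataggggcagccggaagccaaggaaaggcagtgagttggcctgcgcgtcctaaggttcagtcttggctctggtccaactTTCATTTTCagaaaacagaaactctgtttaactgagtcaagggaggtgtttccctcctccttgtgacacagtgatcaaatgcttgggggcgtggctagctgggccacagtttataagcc
Ifnb1 held an NF-kB match starting 116 bases before the start site. Cxcl10 held an interferon core match 213 bases before its start and NF-kB matches at 159, 104 and 103, of which the last pair overlap. Ifit1 held 3 core matches, at 109, 103 and 84 bases, of which the first pair overlap, and Rsad2 held 1 at 119.

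Over the full RefSeq windows, 250 bases before to 50 after each start, 11 of the 12 type I interferon genes tested (91.7%) held GAAANNGAA, as did 18 of the 30 interferon-stimulated genes with an entry (60%). The share was 26.1% of the 306 matched genes that were called and at least 8-fold higher at 4 h, 14% of those at least 2-fold higher, 6.92% of those at least 2-fold lower and 8.40% of those not called. All 27025 genes in the RefSeq table gave 9.76%, and the 11595 matched genes that were tested gave 9.01%. The NF-kB consensus was found in 10 of 23 cytokine and chemokine genes (43.5%) and 7 of 17 NF-kB pathway and feedback genes (41.2%), against 9.55% of all RefSeq genes and 12.4% of those tested. Immediate early genes held it in 7 of 20 (35%). The cAMP response element TGACGTCA was found in 3 of 20 immediate early genes (15%), against 2.03% of all RefSeq genes and 3.34% of those tested. A match is a description of these letters and says nothing of whether a factor bound there.

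The 30 min libraries held 42.3 to 50.8 M counts (M, 1e6) and the 4 h libraries 41.4 to 46.9 M, and 16790 to 17088 genes had a count. Levels are given as counts per 1e6 (CPM) scaled with TMM, edgeR's factor for differences in RNA composition, and a gene was called when edgeR's quasi-likelihood test gave an adjusted p (Benjamini-Hochberg) under 0.05. TMM factors were 1.04 to 1.05 at 30 min and 0.765 to 0.813 at 4 h, so the scaling moves every fold change: with total counts alone the median gene moved from -0.04 to -0.43 on the log2 scale, and values near 0 are read with that in mind. A principal component analysis of the 15 wild-type libraries put 91.5% of their variance on 1 component, with the 4 h Jurkat libraries at 80.8 to 86.0, those at 30 min at -23.0 to -21.5 and the 4 h OVA libraries at -9.41 to -7.08. In knockout cells given Jurkat cells for 30 min, replicate 1 stood apart with high interferon and chemokine genes. Values without it are given beside the main results whose comparison uses it. The spread behind the wild-type SEs and p-values is estimated over all 30 libraries, so it includes that library. A fit of the wild-type Jurkat groups alone called 11467 genes, against 11645 in the main fit. Markers of the labelled cells were present: Flt3 lay at 553 CPM at 30 min, Itgax at 445, the plasmacytoid gene Siglech at 793 and the conventional dendritic cell factor Zbtb46 at 80.8.

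At 4 h, 11645 of 14808 genes tested were called (78.6%), 5614 of them higher (37.9%) and 6031 lower (40.7%). The changes were wide as well as many: 2350 genes were called and at least 2-fold higher (15.9%), 1768 at least 2-fold lower (11.9%), 403 at least 8-fold higher and 91 at least 8-fold lower. All 3 libraries of one time lay above all 3 of the other for 11720 genes (79.1%). With scaling to total counts the split of the calls moved to 3365 higher and 8908 lower, so 27.4% of called genes were higher in place of 48.2%. With so many genes called, each list below is described by its direction, the size of its changes and its median, to be read beside the median of all genes, which was -0.04. The lists were chosen with earlier results of these data known, so a shared direction within a list is a description and not a test.

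The type I interferon genes, whose products start antiviral signalling in neighbouring cells, had almost no counts at 30 min and many at 4 h. Over the 12 genes tested, the 3 libraries at 30 min held 5 counts and those at 4 h held 4723, and all 12 were called higher. Ifnb1 lay at 0.0656, 0 and 0 CPM at 30 min and at 9.68, 15.8 and 12.1 CPM at 4 h. That is 3 counts against 1301, a ratio of 592 after scaling with a 95% interval of 202 to 2880 that covers counting error only (edgeR adjusted p = 7.18e-16). Ifna2 went from 1 count to 613, a ratio of 837 (150 to 33100), with 4.67, 7.5 and 5.53 CPM at 4 h. Ifnab went from 1 count to 101, a ratio of 138 (24.2 to 5500). The other 9 genes had no count at 30 min, so their folds are lower bounds set by 3 counts over the group, or 0.0209 CPM. By that measure Ifna5 was at least 332-fold higher, Ifna6 at least 218-fold, Ifna4 at least 205-fold and Ifna1 at least 126-fold. Ifna9, Ifna11, Ifna14, Ifna15 and Ifna12 had bounds of 111, 97.0, 79.7, 33.2 and 31.4. With those genes at their bounds the median of the list was 7.04 on the log2 scale. Ifna7, Ifna13, Ifna16 and Ifnz did not pass the filter. The Ifna genes lie close together and are near-identical copies, so how reads were split among them is uncertain, and 9 of the 12 were called under DESeq2: Ifna5 (adjusted p = 0.113), Ifna14 (0.211) and Ifna12 (0.292), each with no count at 30 min, lost their call. No list gene carried the mark of added Jurkat cells that is described further on. That mark compares knockout cells after 30 min of Jurkat cells and of OVA. There Ifnb1 had means of 0.108 and 0.0214 CPM, and Ifna5 of 0.0361 and 0 CPM. At such levels a mark could hardly be called, so its absence tells nothing about these genes. In the OVA time course, where 14.9% of all genes were called higher and 14.7% lower, 1 of the 12 was called, Ifnb1, with mean levels of 0.0207 and 0.149 CPM. The rise with Jurkat cells passed edgeR's test as larger than the OVA change for 6 of the 12, against 30.3% of all genes. Ifna5, with no count in either OVA group, did not pass, and the test cannot judge such a gene.

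**Figure D1:**
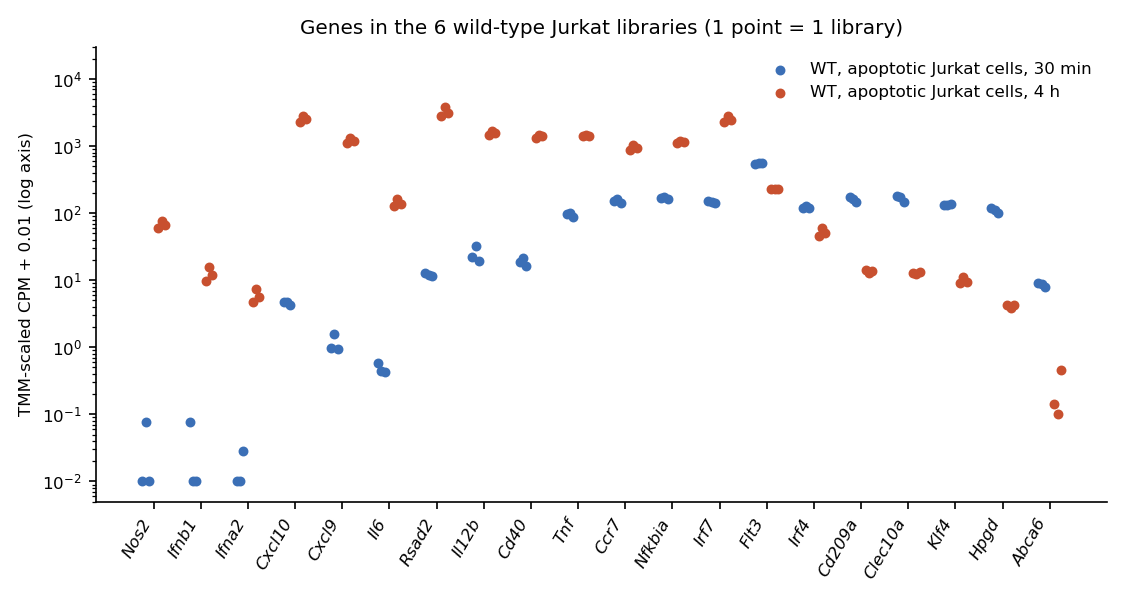
TMM-scaled CPM with a small offset that lets zeros be drawn (log axis) of 20 genes in the 6 wild-type Jurkat libraries, with 1 point per library, blue at 30 min and red at 4 h. For Cxcl10 the 4 h libraries lie at 2270 to 2801 CPM and the 30 min libraries at 4.32 to 4.76 CPM, while Flt3, Irf4, Cd209a, Clec10a, Klf4, Hpgd and Abca6 are lower at 4 h; the groups overlap in none of the 20 genes.

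All 40 interferon-stimulated genes tested were higher at 4 h, each at least 2-fold, with a median of 4.07. Their summed level was 3699 to 3951 CPM at 30 min and 39120 to 47330 CPM at 4 h. Rsad2, which encodes viperin, an antiviral enzyme, lay at 12.8, 11.9 and 11.6 CPM at 30 min and at 2782, 3789 and 3113 CPM at 4 h, a log2 difference of 8.06 (SE 0.51, edgeR adjusted p = 1.13e-14). Ifit1, which binds foreign RNA, lay at 12.9, 9.66 and 8.73 CPM and then at 1172, 1500 and 1295 CPM, a difference of 6.99 (SE 0.42, edgeR adjusted p = 3.82e-15). In both genes the groups stood far apart and replicate 2 was the highest at 4 h. Irf7, the regulator that amplifies Ifna transcription, rose from 153, 148 and 143 CPM to 2297, 2828 and 2474 CPM, a difference of 4.10 (SE 0.17). Isg15, a ubiquitin-like modifier, rose by 5.90. The smallest rise of the list was that of Bst2, at 1.0 (SE 0.05). OVA gave calls in the same direction for all 40, at a median of 1.05, and for each of the 40 the rise with Jurkat cells was larger than that with OVA (test of the difference between the changes, called for 66.4% of all genes, 30.3% higher and 36.1% lower with Jurkat cells).

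Of 36 cytokine, chemokine and growth factor genes, 33 were higher at 4 h, 32 of them at least 2-fold, 2 were lower and Osm was not called (-0.04, edgeR adjusted p = 0.762). The median was 3.41 and the summed level went from 1005 to 1090 CPM at 30 min to 16260 to 18100 CPM at 4 h. Ligands of CXCR3, the receptor on activated T cells and NK cells, had the largest changes. Cxcl9 lay at 0.963, 1.58 and 0.939 CPM and then at 1129, 1329 and 1192 CPM, a difference of 10.05 (SE 0.64, edgeR adjusted p = 1.36e-14). Cxcl10 lay at 4.70, 4.76 and 4.32 CPM and then at 2270, 2801 and 2555 CPM, a difference of 9.11 (SE 0.55, edgeR adjusted p = 3.50e-15). Neither gene's groups came near each other. The neutrophil attractant Cxcl3 rose by 8.66, from a mean of 0.129 to 52.1 CPM.

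The interleukins separated by subunit. Il12b, the p40 chain shared by IL-12 and IL-23, lay at 21.9, 32.2 and 19.5 CPM at 30 min and at 1474, 1675 and 1555 CPM at 4 h, a difference of 6.00 (SE 0.32, edgeR adjusted p = 1.24e-16). Il12a, the p35 chain that completes IL-12, went the other way, from 17.5, 15.4 and 17.2 CPM to 13.0, 10.9 and 11.5 CPM, and fell by 0.50 (SE 0.07, edgeR adjusted p = 5.31e-07), with no overlap between the groups. Il23a, the p19 chain that completes IL-23, rose by 3.77 but stayed low, from 0.063 to 0.892 CPM. Both chains of IL-27 rose: Il27 lay at 0.503, 0.564 and 0.432 CPM and then at 26.7, 39.0 and 30.0 CPM, a difference of 6.00 (SE 0.18). Ebi3, its partner, rose by 2.62 from 29.7, 31.5 and 29.4 CPM to 181, 192 and 183 CPM. Il6 lay at 0.569, 0.429 and 0.413 CPM and then at 126, 162 and 139 CPM, a difference of 8.24 (SE 0.35, edgeR adjusted p = 5.26e-19). Tnf rose from 97.4, 102 and 87.8 CPM to 1398, 1484 and 1427 CPM, a difference of 3.91 (SE 0.10). Il1b rose by 4.33 and Il10, which restrains inflammation, by 1.99, from 2.31 to 9.25 CPM. With OVA 17 of the 36 were called higher and 1 lower, at a median of 0.40. Il12b differed by 0.20 with OVA (edgeR adjusted p = 0.666) and Tnf by 0.07. For 30 of the 36 the change with Jurkat cells was higher than that with OVA, and for 1 it was lower.

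The 22 genes of dendritic cell maturation, the programme that arms these cells to prime T cells, were all higher at 4 h and all at least 2-fold, with a median of 2.91. Cd40, the receptor through which helper T cells license dendritic cells, lay at 18.5, 21.2 and 16.1 CPM and then at 1303, 1455 and 1392 CPM, a difference of 6.22 (SE 0.30, edgeR adjusted p = 1.05e-17). The costimulatory ligands Cd80 and Cd86 rose by 2.98 and 2.95, and Cd86 went from 76.8, 75.9 and 69.7 CPM to 529, 622 and 568 CPM. Cd274, which encodes the inhibitory ligand PD-L1, rose by 5.02 (SE 0.18) from a mean of 20.6 to 667 CPM. Tnfsf4, the OX40 ligand, rose by 4.82. Ccr7, which guides dendritic cells to lymph nodes, lay at 151, 163 and 141 CPM and then at 874, 1045 and 944 CPM, a difference of 2.65 (SE 0.09). The smallest change of the list was 1.33, for the calcium channel subunit gene Cacnb3. OVA gave 18 higher calls at a median of 0.45. Cd86 did not pass the test there (0.08, edgeR adjusted p = 0.435), and all 22 genes rose more with Jurkat cells than with OVA.

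Genes of the NF-kB pathway and of feedback on cytokine signals were all higher, 20 of 20, each at least 2-fold, with a median of 2.65. Nfkbia, the inhibitor that NF-kB itself induces, lay at 170, 174 and 165 CPM and then at 1117, 1170 and 1136 CPM, a difference of 2.75 (SE 0.05, edgeR adjusted p = 1.77e-26). Nfkbiz, a nuclear cofactor needed for Il6, lay at 66.3, 68.0 and 67.7 CPM and then at 891, 1031 and 917 CPM, a difference of 3.81. The SOCS family members, which block JAK kinases, rose too: Socs1 by 4.54, Cish by 4.53 and Socs3 by 3.19. Tnfaip3, which encodes the ubiquitin editor A20, rose by 3.48. Rela, the main transactivating subunit, rose the least, by 1.03. OVA gave 10 higher and 2 lower calls, at a median of 0.24, and the rise with Jurkat cells was larger for all 20.

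Immediate early genes, which are transcribed within minutes of a stimulus without new protein, went both ways. Of 25 tested, 12 were higher, 10 lower and Fosl1, Myc and Btg2 not called, with a median of 0.05 that became -0.34 with total counts. Nr4a3, a nuclear orphan receptor, lay at 23.6, 25.5 and 22.3 CPM and then at 1395, 1729 and 1527 CPM, a difference of 6.03. Jun, a subunit of AP-1, rose by 1.24 from 102 to 242 CPM. The zinc finger regulators Klf4 and Klf2 fell: Klf4 lay at 133, 135 and 135 CPM and then at 9.05, 11 and 9.40 CPM, a difference of -3.77 (SE 0.06, edgeR adjusted p = 5.16e-29), and Klf2 differed by -3.01. Egr1, Fos and Egr2 lay above untreated cells at 30 min, by 0.75, 1.05 and 1.83 on the log2 scale, and were lower at 4 h than at 30 min. Egr1 lay at 80.3, 77.9 and 88.9 CPM at 30 min and at 51.2, 47.7 and 46.8 CPM at 4 h, against a mean of 49.1 CPM in untreated cells, a difference of -0.76 (SE 0.09). Fos, with means of 70.2 CPM untreated, 146 at 30 min and 102 at 4 h, differed by -0.51 between the times. With OVA Egr1 rose instead, by 1.3 from 22.4 to 55.1 CPM, and the changes differed by -2.06 (edgeR adjusted p = 4.50e-14).

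**Figure D2:**
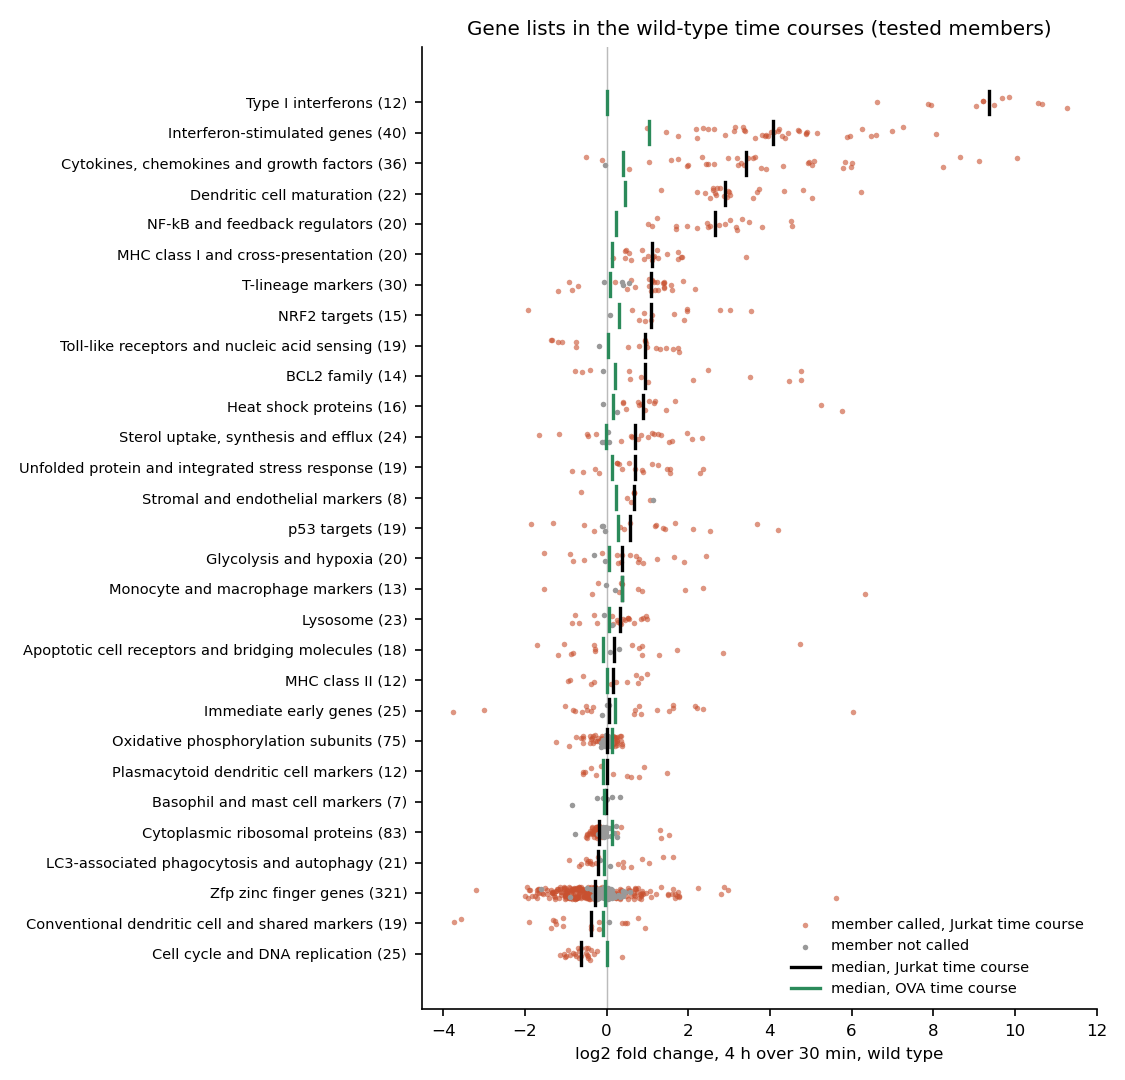
Log2 fold change, 4 h over 30 min, of each tested member of each gene list in wild-type cells given Jurkat cells (points, red where called and grey where not), with the list's median in black and its median in the OVA time course in green. With Jurkat cells the medians for interferon-stimulated genes (4.07), cytokines (3.41), maturation (2.91) and NF-kB (2.65) lie far from 0 and that for cell cycle lies below it (-0.63); the type I interferon median drawn (9.36) is a fitted value with 9 of 12 genes at 0 counts at 30 min, and the medians for immediate early genes, plasmacytoid markers, monocyte and macrophage markers, apoptotic cell receptors, MHC class II, glycolysis, lysosome and oxidative phosphorylation fall below 0 when scaled to total counts.

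Genes of MHC class I presentation and cross-presentation were higher throughout. All 20 were called higher, 12 at least 2-fold, with a median of 1.12; with scaling to total counts 16 were higher and 1 lower. Nlrc5, the transactivator of class I genes, rose from 110, 111 and 109 CPM to 1124, 1307 and 1114 CPM, a difference of 3.42 (SE 0.11, edgeR adjusted p = 5.62e-22). Tap1, a subunit of the transporter that brings peptides to class I, rose by 1.74, from 382, 403 and 394 CPM to 1259, 1344 and 1341 CPM. The heavy chain gene H2-K1 rose by 1.25 and B2m, the light chain, by 1.11. With OVA 14 were higher, at a median of 0.14, and all 20 rose more with Jurkat cells.

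The class II genes split by role. Of 12 tested, 7 were higher and 5 lower at a median of 0.16, which became -0.24 with total counts. The chains that form the peptide-binding complex and its chaperone rose: H2-Eb1 by 0.99, from 4442, 4555 and 4300 CPM to 8656, 8622 and 9218 CPM, Cd74 by 0.84, H2-Ab1 by 0.76 and H2-Aa by 0.71. The genes of the peptide editors fell. H2-DMa, a chain of the molecule that exchanges peptides on class II, lay at 609, 636 and 623 CPM and then at 320, 308 and 348 CPM, a difference of -0.94 (SE 0.06, edgeR adjusted p = 2.55e-15). Its partner H2-DMb1 differed by -0.88, and H2-Oa, which restrains that exchange, by -0.57. Ciita, the master regulator of class II transcription, moved little (0.10, SE 0.04, edgeR adjusted p = 0.0372).

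Sensors of nucleic acids and microbial products also split. Of 19 tested, 12 were higher and 6 lower at a median of 0.93, and 1 was not called. Of the endosomal receptors, Tlr9, which binds DNA, lay at 141, 159 and 173 CPM and then at 460, 563 and 433 CPM, a difference of 1.62 (SE 0.08). Tlr7, which binds single-stranded RNA, rose by 1.22, and Tlr13, which binds bacterial ribosomal RNA, differed by -0.19 (edgeR adjusted p = 0.052). Their adaptor Myd88 rose by 1.76 (SE 0.05). Tlr3, the endosomal receptor for double-stranded RNA, fell from 138, 136 and 135 CPM to 49.3, 57.5 and 51.5 CPM, a difference of -1.37 (SE 0.06, edgeR adjusted p = 4.22e-18). Tlr11, which binds profilin, differed by -1.33 and the lipopolysaccharide receptor Tlr4 by -1.08. In none of these 3 did the groups overlap. With OVA 6 of the 19 were called higher and none lower; Tlr3 differed there by -0.09 (edgeR adjusted p = 0.247).

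Markers of dendritic cell subsets did not move as one. In RNA from whole cultures fewer cells of a type and less RNA per cell cannot be told apart, and that holds for every marker named here. Of 19 conventional dendritic cell and shared markers 5 were higher, 13 lower and Cadm1 not called, with 9 at least 2-fold lower, none at least 2-fold higher and a median of -0.39. Lectins of the conventional type 2 and monocyte-related cells had the largest falls. Clec10a lay at 178, 177 and 148 CPM and then at 12.6, 12.4 and 13.0 CPM, a difference of -3.73. Cd209a lay at 172, 162 and 144 CPM and then at 14, 12.7 and 13.8 CPM, a difference of -3.56, and Mgl2 differed by -1.91. Flt3, the receptor for the cytokine that drives these cultures, fell from 546, 558 and 554 CPM to 232, 230 and 228 CPM, a difference of -1.26 (SE 0.04, edgeR adjusted p = 2.63e-23). The transcription factors Batf3 and Irf4 differed by -1.36 and -1.24, and Irf8 by -0.18. Genes tied to the cross-presenting type 1 cells went both ways: the chemokine receptor Xcr1 rose by 0.76, from 98.8, 98.2 and 86.2 CPM to 168, 156 and 155 CPM, and Clec9a, a receptor for exposed actin of dead cells, by 0.51, while Batf3 and Irf8, on which these cells depend, fell as given and Cadm1 differed by 0.05 (edgeR adjusted p = 0.381). Scaling to total counts left 3 higher and 14 lower.

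Plasmacytoid markers were even: of 12 tested, 6 were higher and 6 lower, with a median of 0.00 that was -0.40 with total counts. Ly6d rose by 1.47, from 245, 230 and 207 CPM to 586, 702 and 600 CPM, and Tcf4, the lineage factor, by 0.49. Ccr9 differed by -0.57. Siglech lay at 805, 788 and 786 CPM and then at 705, 791 and 655 CPM, groups that overlap, with a difference of -0.14 (edgeR adjusted p = 0.0225). Of 13 monocyte and macrophage markers 8 were higher and 3 lower, at a median of 0.37 that was -0.03 with total counts. The scavenger receptor Marco rose by 6.33, from 0.766, 0.768 and 0.469 CPM to 55.6, 53.8 and 49.8 CPM, and the high-affinity Fc receptor Fcgr1 by 2.35. Ccr2, which draws monocytes out of marrow, fell from 1245, 1125 and 1074 CPM to 397, 424 and 379 CPM, a difference of -1.52. None of the 7 basophil and mast cell markers was called in edgeR's test, 0 had an unadjusted p under 0.05 and DESeq2 called 1, and their sum lay at 24.8 to 34.4 CPM at 30 min and 25.5 to 38.2 CPM at 4 h. Of 8 stromal and endothelial markers 6 were higher, 1 lower and Lum not called, with sums of 655 to 773 and then 916 to 1018 CPM; Col1a1 rose by 0.68 and Pecam1 differed by -0.63. Their part in the results was not tested.

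Receptors and bridging molecules for apoptotic cells changed in both directions, 8 higher and 8 lower of 18, with Mfge8 and Cd36 not called and a median of 0.19 that was -0.21 with total counts. Timd4, which binds phosphatidylserine on dying cells, lay at 1.16, 1.36 and 1.65 CPM and then at 36.4, 38.9 and 36.8 CPM, a difference of 4.73 (SE 0.21, edgeR adjusted p = 2.57e-18). The receptor kinase Axl lay at 145, 126 and 148 CPM and then at 925, 1111 and 968 CPM, a difference of 2.84 (SE 0.10). Its relative Mertk rose by 0.86, while Gas6, which links both kinases to phosphatidylserine, differed by -0.82. The scavenger receptor Scarb1 fell from 135, 137 and 144 CPM to 45.2, 39.3 and 42.9 CPM, a difference of -1.71, and Cd93 differed by -1.20. With OVA Timd4 rose by 0.83, from 1.23 to 2.21 CPM.

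Genes of LC3-associated phagocytosis and autophagy had 8 higher and 11 lower calls of 21, with Atg12 and Gabarapl2 not called and a median of -0.22. The 3 that rose at least 2-fold all encode parts of the phagocyte NADPH oxidase, which makes the superoxide that this pathway needs: Cybb by 1.62, from 780, 751 and 735 CPM to 2212, 2556 and 2173 CPM, Ncf1 by 1.38 and Ncf4 by 1.03. The conjugation enzyme gene Atg7 differed by -0.92 and Map1lc3b, which encodes an LC3, by -0.41. Rubcn, on chromosome 16 from 32821702 to 32868366 in mm10, lay at 79.4, 80.5 and 82.6 CPM at 30 min and at 58.3, 62.3 and 56.1 CPM at 4 h, a difference of -0.46 (SE 0.05, edgeR adjusted p = 1.04e-09). Its mean was 98.9 CPM in untreated cells, and with OVA it differed by 0.05. In the knockout libraries Rubcn lay at 68.5 CPM at 30 min and 48.0 CPM at 4 h, so counts over the whole gene do not check that label. Of 23 lysosomal genes 16 were higher and 5 lower at a median of 0.32, which was -0.08 with total counts (6 higher and 10 lower), and none changed 2-fold; Lamp2 rose by 0.99 and Tfeb, a regulator of lysosome genes, differed by -0.86.

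Among 24 genes of sterol uptake, synthesis and efflux 15 were higher and 5 lower, at a median of 0.70. Of the genes of cholesterol synthesis, Idi1 rose by 2.09 and Hmgcs1 by 1.96, the latter from 176, 172 and 171 CPM to 634, 746 and 638 CPM. On the efflux side the oxysterol sensor LXR alpha, Nr1h3, rose by 2.34, from 11.5, 10.8 and 11.9 CPM to 55.7, 63.7 and 54.2 CPM, and the exporters Abca1 and Abcg1 by 0.63 and 0.84. The desaturases Fads1 and Scd2 fell, by 1.65 and 1.18 on the log2 scale. Nr1h3 also rose with OVA, by 1.32, and the rise with Jurkat cells was larger by 1.02 (edgeR adjusted p = 3.87e-06). Of 20 genes of glycolysis and hypoxia 13 were higher and 5 lower at a median of 0.38, which was -0.02 with total counts (9 and 9). Pfkfb3, whose product drives glycolytic flux, rose by 1.66 and the glucose transporter gene Slc2a1 by 1.23, and Pdk1 fell by 1.52.

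Stress genes were mostly higher. Of 15 targets of NRF2, the oxidative stress factor, 13 were higher and 1 lower, at a median of 1.10. Sqstm1, which encodes the autophagy receptor p62, lay at 272, 289 and 272 CPM and then at 2274, 2246 and 2257 CPM, a difference of 3.03 (SE 0.05, edgeR adjusted p = 1.09e-27). The cystine importer gene Slc7a11 rose by 3.53, Nqo1 by 2.79 and Hmox1 by 1.90, while Osgin1 fell by 1.92. Of 16 heat shock genes 14 were higher, with Hspe1 and Hspb1 not called, at a median of 0.90. Hspa1a, the inducible HSP70, lay at 1.05, 1.11 and 1.24 CPM and then at 50, 82.6 and 53.9 CPM, a difference of 5.77 (SE 0.18). Its near-identical neighbour Hspa1b rose by 5.25, and reads could be split between the pair. Of 19 genes of the unfolded protein and integrated stress responses 15 were higher and 4 lower, at a median of 0.69. Ppp1r15a, which ends the block on translation, rose by 2.36, Chac1 by 2.29 and the chaperone gene Hspa5 by 1.55.

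Survival and growth genes went both ways. Of 14 BCL2 family genes 10 were higher and 3 lower, at a median of 0.93. The protective members Bcl2a1d, Bcl2a1a and Bcl2l1 rose by 4.77, 4.77 and 3.51; the Bcl2a1 genes are close copies, so reads could be split among them. Bcl2l11, which encodes the killer BIM, rose as well, from 52.1, 56.3 and 55.1 CPM to 298, 328 and 296 CPM, a difference of 2.5, whereas Bcl2 fell by 0.61. Of 19 targets of p53 12 were higher and 4 lower, at a median of 0.57. Cdkn1a, the p21 brake on cyclin kinases, lay at 93.3, 91.6 and 92.4 CPM and then at 1659, 1689 and 1766 CPM, a difference of 4.21 (SE 0.12), and the death receptor gene Fas rose by 3.67. Of 25 cell cycle and DNA replication genes 24 were lower, 3 of them at least 2-fold, with a median of -0.63. Mcm7, a helicase subunit, fell from 182, 185 and 178 CPM to 91.8, 81.6 and 92.6 CPM, a difference of -1.03, and Rrm2 differed by -1.13. Tyms was the exception, higher by 0.37 and at -0.02 with total counts. With OVA 3 of the 25 were higher and 8 lower.

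The 3 largest gene families followed had medians between -0.29 and 0.02. Of 83 cytoplasmic ribosomal protein genes 5 were higher and 55 lower at a median of -0.19, none of them at least 2-fold lower, and their sum went from 41550 to 47350 CPM at 30 min to 37950 to 40940 CPM at 4 h. Of 75 subunits of oxidative phosphorylation 22 were higher and 22 lower at a median of 0.02; with total counts none was higher, 68 were lower and the median was -0.38. With OVA 31 of the ribosomal genes and 33 of the oxidative phosphorylation genes were called higher and none lower. Of 321 Zfp zinc finger genes, many of them repressors, 64 were higher and 180 lower at a median of -0.29, with 19 at least 2-fold higher and 48 at least 2-fold lower.

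Among genes with a mean of 5 CPM or more at one of the times and without the mark of added Jurkat cells, the largest rises outside the interferons were those of Serpina3f (8.93), Tarm1 (7.48), Slfn4 (6.86), Cd70 (6.77), Macc1 (6.75), Lta (6.42) and Marco (6.33). Serpina3f, a serpin induced by interferons, lay at 0.0875, 0.113 and 0.150 CPM and then at 54.8, 65.7 and 57.3 CPM. Cd70, the ligand of CD27 on T cells, lay at 0.0438, 0.0903 and 0.0751 CPM and then at 7.08, 7.47 and 9.19 CPM. Among genes with the mark, Nos2, the inducible nitric oxide synthase, had 3 counts at 30 min and 7051 at 4 h, a ratio of 3210 with a counting interval of 1100 to 15600, and 61.1, 75.3 and 66.2 CPM at 4 h. Cxcl11, another ligand of CXCR3, differed by 10.26. The order depends on the library that stood apart: with the mark taken without it, Nos2 ranked first, Tarm1 ranked 11, and the genes between Serpina3f and Tarm1 included Cxcl3 (8.66), Shisa3 (8.13), Tgtp1 (7.60) and Acod1 (7.56).

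Among unmarked genes with a mean of 5 CPM or more at one of the times, the largest falls were those of Abca6, Hpgd, Cd300lg and Hepacam2; some genes under that level fell further, such as Cd209e (-7.24, from a mean of 3.33 CPM). Abca6, a lipid transporter gene, lay at 8.97, 8.69 and 7.98 CPM and then at 0.131, 0.0897 and 0.451 CPM, a difference of -5.26 (SE 0.21, edgeR adjusted p = 1.02e-19). Hpgd, whose product inactivates prostaglandins, lay at 121, 110 and 100 CPM and then at 4.25, 3.80 and 4.33 CPM, a difference of -4.74 (SE 0.10). Cd300lg differed by -4.72 and Hepacam2 by -4.71. Dpep3 (-4.40), Kif5a (-4.26), Skint3 (-4.23), the leukotriene B4 receptor gene Ltb4r1 (-4.04), Card10 (-4.03) and the mTOR inhibitor gene Deptor (-3.99) followed. In these 10 genes the 6 libraries did not overlap between the times, and with OVA the same genes differed by between -0.75 for Abca6 and -0.17 for Ltb4r1.

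The genes with most counts changed order. At 30 min these were Cd74, Psap, H2-Aa, Actb and Tmsb4x, and at 4 h Actb, Cd74, H2-Aa, H2-Eb1 and H2-Ab1. Actb, cytoplasmic actin, rose from a mean of 6057 to 18190 CPM, a difference of 1.59 (SE 0.04), and took 1.39 to 1.47% of counts at 4 h. Psap, a lysosomal activator protein, differed by -0.15, a call that did not hold under DESeq2.

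Jurkat cells were present in both groups, and genes of the T lineage, from which Jurkat cells derive, were followed as a measure of their RNA among the counts on mouse genes. The summed level of 15 T-lineage genes that lay under 1 CPM in untreated wild-type cells, among them Cd3e, Zap70 and Gata3, was 4.64 ± 0.18 CPM (SD, n = 3) untreated, 4.07 ± 0.21 at 30 min and 4.57 ± 0.33 at 4 h of OVA. With Jurkat cells it was 43.7, 44.8 and 42.6 CPM at 30 min and 122, 91.5 and 120 CPM at 4 h. The groups did not overlap, and the 4 h mean was 2.54 times that at 30 min (exact two-sided permutation test, p = 0.1, the smallest that 3 against 3 can give), or 1.94 times when scaled to total counts. Over all 30 T-lineage genes tested, which include genes that dendritic cells express, 22 were higher and 4 lower, at a median of 1.10, and the ratio of the summed levels of all list members was 1.10. At 4 h replicate 2 had the lowest T-lineage sum and the highest Ifnb1, Il6 and Irf7.

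**Figure D3:**
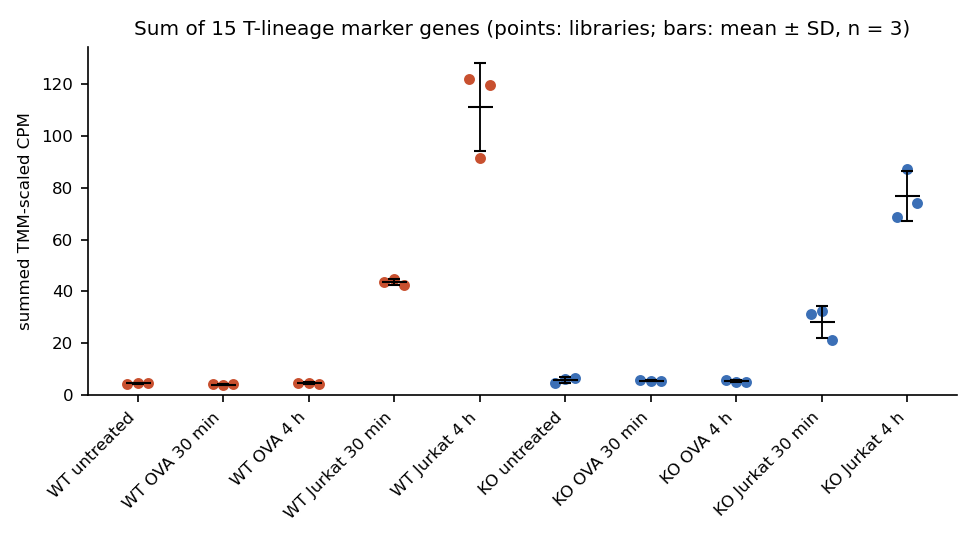
Summed TMM-scaled CPM of 15 T-lineage genes in each library (points, red for wild type and blue for knockout) of all 10 groups, with mean and SD (n = 3) in black. Wild-type libraries given Jurkat cells lie at 42.6 to 44.8 CPM at 30 min and 91.5 to 122 CPM at 4 h, and those without Jurkat cells at 3.83 to 4.81 CPM.

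A wider mark of added Jurkat cells was taken from knockout libraries, outside the comparison. It covered genes called and at least 2-fold higher in knockout cells after 30 min of Jurkat cells than after 30 min of OVA. There were 285 such genes (1.92%), of which 273 were higher and 4 lower in wild-type cells at 4 h, at a median of 1.63. They held 0.139 to 0.144% of counts at 30 min and 2.43 to 2.78% at 4 h. Of the 14523 genes without the mark 5341 were higher and 6027 lower at a median of -0.05. Among the knockout OVA libraries at 30 min, replicate 3 held 9.73 M counts, against 46.4 and 42.8 M in replicates 1 and 2. The mark was not recomputed without any OVA library. Leaving out replicate 1 of the knockout 30 min Jurkat libraries gave 204 marked genes, 195 higher and 4 lower, at a median of 1.6, and cut the marked genes' share of counts to 1.14 to 1.27% at 4 h. Without that library the marked interferon-stimulated genes went from 9 to 3 and the marked cytokine genes from 15 to 10, and Nos2, Cxcl3, Cd40, Il12b, Nr4a3 and Csf2 no longer carried the mark, while Cxcl9, Cxcl10, Cxcl11, Rsad2, Ifit1, Il6 and Tnf still did. Of those 204, 173 lay under 1 CPM in untreated cells and in no response list; 169 were higher and none lower at 4 h, with a median of 1.59 or 3.01-fold and quartiles of 1.37 and 1.83. Their summed level was 19.6 CPM untreated, 222 CPM at 30 min and 725 CPM at 4 h. Whether human RNA had a part in the level of a marked gene was not tested.

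Wild-type cells given OVA, a soluble protein, for the same times share no library with those given Jurkat cells. It gave 4396 called genes (29.7%), 2212 higher and 2184 lower, of which 248 were at least 2-fold higher and 28 at least 2-fold lower. The median absolute log2 difference was 0.57 with Jurkat cells and 0.13 with OVA. In both, 3866 genes were called, which is 33.2% of the Jurkat calls and 87.9% of the OVA calls, and 3154 of these went the same way. Across the 14808 genes the changes had a Pearson correlation of 0.45, a description over genes, which are not replicates. The difference between the changes passed edgeR's test for 9837 genes (66.4%). Of the 712 genes called in opposite directions 351 were higher with Jurkat cells and lower with OVA. The largest were Cxcl2, a neutrophil chemokine gene that went from 35.8, 36.3 and 34.5 CPM to 400, 375 and 397 CPM with Jurkat cells (3.46) and from 20.1 to 15.3 CPM with OVA (-0.41), Fam89a (2.85 and -0.51) and Bcl2l11 (2.5 and -0.40). The 361 that went the other way were led by Marveld1 (-2.05 and 0.14), Mxd3, which encodes a partner of MAX that opposes MYC (-2.05 and 0.22), and Kcnip3 (-1.95 and 0.36).

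**Figure D4:**
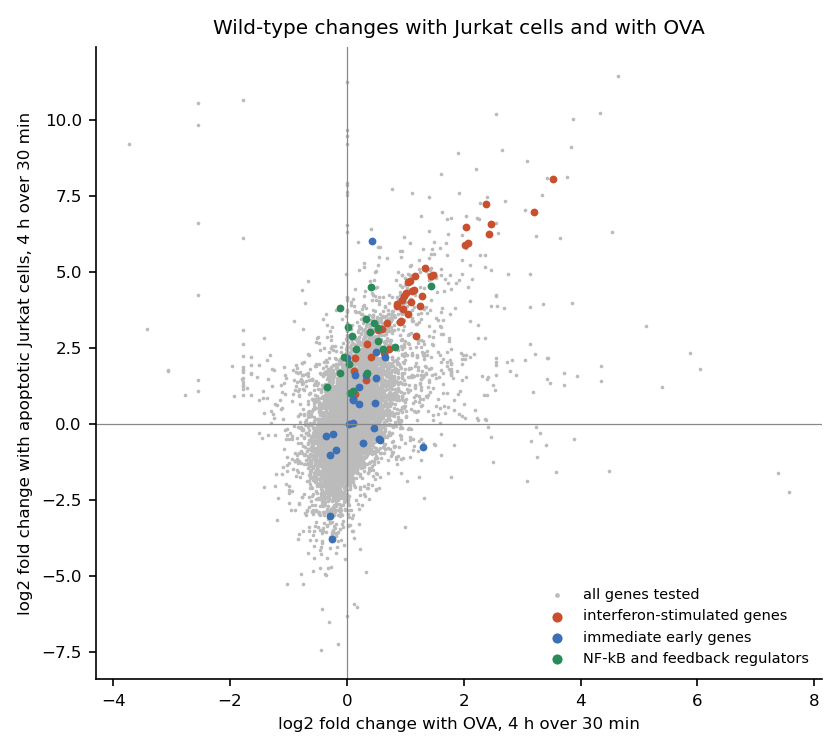
Log2 fold change, 4 h over 30 min, of each of 14808 genes in wild-type cells given OVA (horizontal axis) and given Jurkat cells (vertical axis), with 3 gene lists in colour. The cloud is taller than it is wide, with a median absolute change of 0.57 with Jurkat cells and 0.13 with OVA, and all 40 interferon-stimulated genes lie above 0 on both axes.

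The same comparison in Rubcn knockout cells uses other libraries throughout. It gave 11424 called genes (77.1%), 5453 higher and 5971 lower, and 10438 genes were called in both genotypes, of which 10407 went the same way and 31 did not. Without replicate 1 of the knockout 30 min libraries it gave 11139 calls (75.2%), 5281 higher and 5858 lower, and of 10271 genes called in both 10245 went the same way and 26 did not. Across genes the Pearson correlation was 0.95 and the slope of the knockout on the wild-type change was 0.84, or 0.90 without that replicate. For the 63 genes with a wild-type difference above 6 the median was 7.36 in wild-type cells and 5.12 in knockout cells, and 6.5 without that replicate. These genes were chosen by their wild-type change, which favours a lower knockout value, and some are fitted over 0 to 3 counts at 30 min. Chosen by a knockout difference above 6 instead, 3 genes had medians of 9.21 in wild-type and 7.31 in knockout cells, and without that replicate 51 genes had medians of 7.29 and 6.77. Nos2 differed by 5.41 in knockout cells and 7.40 without the replicate, Cxcl10 by 5.49 and 7.07, and Ifnb1 by 5.06 and 6.34. The difference between the genotypes' changes passed edgeR's test for 1307 genes (8.83%), 441 with a higher (2.98%) and 866 with a lower (5.85%) knockout change, and for 862 genes without that replicate, 301 higher and 561 lower. It passed for 687 genes without replicate 2 of the wild-type 4 h libraries and for 558 in a fit of these 4 groups alone; with total counts 71.3% of the calls were higher in place of 33.7%. The knockout change was called lower for 14 of 36 cytokine genes and 10 of 16 heat shock genes, and higher for 0 of either list. Without replicate 1 of the knockout 30 min libraries it was lower for 10 and 9 of them. Of the 40 interferon-stimulated genes it was called higher for 1 and lower for 7, but higher for 8 and lower for 1 without that replicate. The 22 maturation genes had 1 higher and 9 lower calls, and 1 higher and 4 lower without it.

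**Figure D5:**
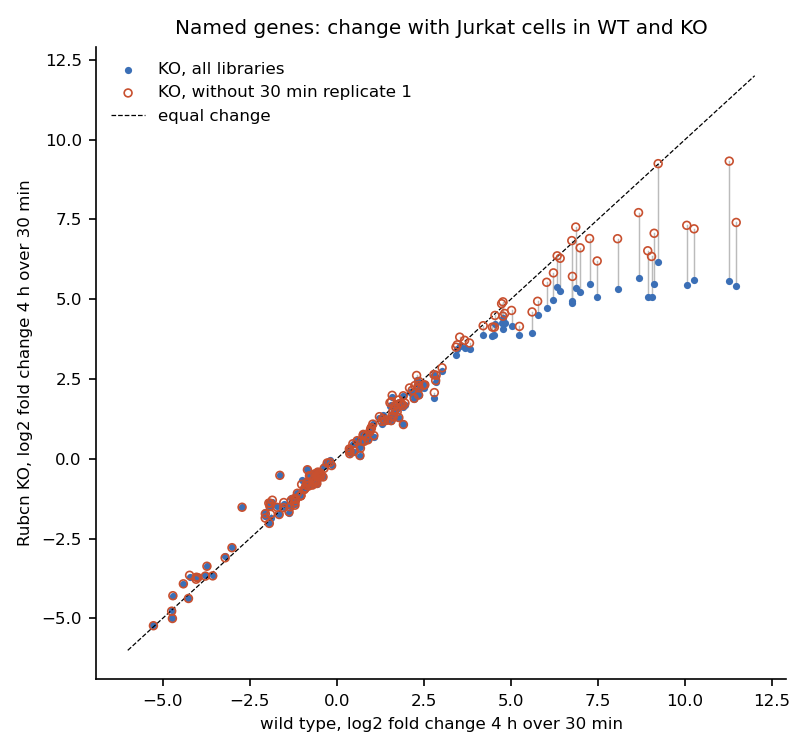
Log2 fold change, 4 h over 30 min, with Jurkat cells in wild-type (horizontal axis) and Rubcn knockout cells (vertical axis) for the genes chosen by the naming rule, with all libraries (blue) and without replicate 1 of the knockout 30 min libraries (open red), and a dashed line of equal change. Many of these genes were chosen for a large wild-type change, which favours a place below the line among the rises. Nos2, at a fitted 11.47 over 3 counts at 30 min in wild-type cells, lies at 5.41 in knockout cells with all libraries and at 7.40 without that replicate.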

How the data were processed

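RNA from mouse FLT3L-cultured dendritic cells was prepared with Trizol and columns with DNase and made into TruSeq RNA v2 libraries, per the labels' protocols. The authors deposited 1 table of raw counts per gene for 30 libraries (25611 gene rows, mm10 coordinates). Reads were aligned with STAR 2.5 and counted with featureCounts 1.5.0-p1 from Subread, and DESeq2 was used, per the submitters' processing notes. The strand setting, the annotation and the handling of human reads were not given in the sources used here.

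The counts were tested with edgeR 4.0.16 in R 4.3.3: genes kept by filterByExpr (14808, 99.99% of counts), TMM scaling, a mean per group over all 30 libraries (20 residual degrees of freedom) and the quasi-likelihood test, called at a Benjamini-Hochberg adjusted p under 0.05. The standard error is the absolute log2 fold change over the square root of F. Libraries held 9.73 to 51.6 M counts (M, 1e6), and the common biological coefficient of variation was 0.0515. On simulated counts for the wild-type Jurkat comparison (14808 genes) 99.5% of 200 changed genes of mixed size were recovered, with 9 false calls (4.33% of calls). The simulation changed only those 200 genes, none at a very low level, and gave every gene the same spread. In the data 78.6% of genes were called and spreads differed between genes. The simulation therefore gives no error rate for these calls and no check of the scaling. A ratio over 1 to 3 counts carries an exact 95% interval for counting error only, and a gene with no count at 30 min is given against 3 counts over the group.

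The members and lists were chosen with earlier results of these data known. The genes named are the 10 largest rises and 10 largest falls (called, no overlap, and a mean of 5 CPM or more at one of the times) without the Jurkat mark, the 5 largest rises with it, the 3 largest in each direction in each list and in each direction opposite to OVA, the 5 with most counts per time and the 4 smallest p of the genotype difference, without predicted genes. Other list members are given as values, and some are not reported here. Promoters are RefSeq's, GRCm38.p6, matched by gene ID. Other scalings, filters, DESeq2 1.42.0, a replicate block, a fit of the compared groups alone and leaving out each library of the groups in a comparison were tried. Results without replicate 1 of the knockout 30 min Jurkat libraries, and the mark without each of those libraries, were added after seeing the data. Replicate numbers were not taken as pairs, since the labels do not say that they pair libraries.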

Additional observations from a re-analysis of the deposited data

Results flagged for a closer look

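For 4 genes the change from 30 min to 4 h of Jurkat cells differed between wild-type and Rubcn knockout cells, by a test of the difference between the changes; these have the smallest p among genes with at least 5 CPM in 1 of the 4 groups. Il1rl1, which encodes the IL-33 receptor ST2, lay at 23.6, 20.6 and 20.9 CPM at 30 min and at 3.20, 3.50 and 3.18 CPM at 4 h in wild-type cells (-2.72), and at means of 24.9 and 8.75 CPM in knockout cells (-1.51). Its knockout change was higher by 1.21 (SE 0.12, edgeR adjusted p = 8.45e-07). Mid1, a ubiquitin ligase gene, rose by 1.91 in wild-type and 1.08 in knockout cells, a difference of -0.83 (SE 0.10, edgeR adjusted p = 4.87e-05), from a 30 min mean of 3.10 CPM in wild-type and 10.9 CPM in knockout cells. Slamf7, a receptor of the SLAM family, rose by 1.78 and 1.27, a difference of -0.52 (SE 0.06, edgeR adjusted p = 4.90e-05). Hist1h1c, a linker histone gene, fell by 1.63 in wild-type cells and by 0.52 in knockout cells, a difference of 1.11 (SE 0.14, edgeR adjusted p = 5.53e-05). Leaving out replicate 1 of the knockout 30 min libraries, which stood apart, gave knockout changes of -1.52 for Il1rl1, 1.07 for Mid1, 1.29 for Slamf7 and -0.52 for Hist1h1c.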

How the results depend on the processing

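Counts of calls and named genes were recomputed under each alternative. The lists were recomputed with DESeq2 size factors, total counts and each wild-type Jurkat library left out, and their calls also with DESeq2's test. Of 227 recomputed summary values, nearly all counts of calls, 205 stayed near the value reported. For counts that meant within 1.5 times, and for the T-lineage ratio within the spread of the 4 h libraries. Direction was checked for single genes and list medians, of which 20 values reversed, as described below. The wild-type count of called genes was 11237 to 12273 throughout, apart from 9123 of the fewer genes kept at 5 CPM in 3 libraries, and 11237 to 11333 with 1 library left out. Single named genes kept direction and call in nearly all alternatives: Csf1r lost its call in 5 of them, Psap in 2, and Tmsb4x and Ifna5 in 1 each.

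Scaling to total counts moved most. It gave 3365 higher wild-type calls; 2451 higher and 8304 lower calls for Jurkat against OVA (22.8% higher in place of 45.7%); 1123 higher and 452 lower for knockout against wild type. Tyms (-0.0220), Cox5a (-0.0198), Uqcrb (-0.0276) and Atp5b (-0.0366) turned negative, as did the medians for immediate early genes (-0.344), plasmacytoid markers (-0.40), monocyte and macrophage markers (-0.0346), apoptotic cell receptors (-0.207), MHC class II (-0.24), glycolysis (-0.0231), lysosome (-0.0793) and oxidative phosphorylation (-0.378). The T-lineage ratio was 1.94 on that scale and 1.10 over all list members. DESeq2 size factors put the basophil median at 0.0686. The 5 CPM filter left 2477 wild-type genes changed at least 2-fold.

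Counts for the knockout against wild-type difference depended on the libraries used. The compared groups alone gave 558 calls (288 higher, 270 lower, 34 at least 2-fold), and genes at least 2-fold numbered 52 with the 5 CPM filter and 54 with DESeq2. With 1 library left out the calls ran from 687 to 1365, higher calls from 243 to 422, lower calls from 444 to 950 and 2-fold calls from 52 to 106; leaving out wild-type 4 h replicate 2 gave the lowest counts of all, higher and lower calls, and leaving out knockout 30 min replicate 1 the lowest 2-fold count. Leave-one-out medians crossed 0 for plasmacytoid markers (-0.0824 to 0.0591), basophil markers (-0.258 to 0.153) and oxidative phosphorylation (-0.0172 to 0.0511). The cause was not tested in any of these.

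Same-numbered 30 min and 4 h wild-type Jurkat libraries had correlations of -0.224, -0.115 and -0.129, and those of the wild-type OVA groups 0.298, -0.188 and 0.145. Such values cannot exclude a shared mouse or day. The labels state no pairing, so the numbers were not taken as pairs. With the replicate block 11658 genes were called. Depth limits the type I interferons and Nos2, which had at most 3 counts each at 30 min.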

Other observations

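Some gene groups outside the lists were looked at after their values had been seen, and are given as values only. Of 15 genes for ligands of the TNF family 9 were higher and 3 lower at a median of 1.02: Tnfsf15 differed by 7.29, Cd70 by 6.77, Lta by 6.42, Tnfsf4 by 4.82 and Tnfsf10, which encodes TRAIL, by 4.58, while Tnfsf14 and the B-cell survival factor Tnfsf13b differed by -1.89 and -1.53. Of 4 Notch ligand genes Dll1 (5.81), Dll4 (3.69) and Jag1 (2.87) were higher and Jag2 (-1.26) lower. All 8 Schlafen genes tested were higher, at a median of 3.47, as were all 11 guanylate-binding protein genes, at 4.62. Among 9 genes of interferon regulatory factors 5 were higher and 3 lower, with Irf7 at 4.10, Irf1 at 2.20 and Irf4 at -1.24. Of single enzyme genes, Acod1, which makes itaconate, went from 4.54 to 847 CPM (7.56) and Ptgs2, which starts prostaglandin synthesis, from 8.72 to 282 CPM (5.02); both carry the mark of added Jurkat cells, Ptgs2 also without the library that stood apart. Hpgd, whose product inactivates prostaglandins, differed by -4.74, and the amino acid enzymes Il4i1 and Ido1 by 3.98 and 3.64.

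Receptors for lipid mediators went both ways, 11 higher and 11 lower of 23, and 10 of them were at least 2-fold lower, among them Ltb4r1 (-4.04), Lpar5 (-3.81), Cnr2 (-3.42), Ptger3 (-3.32) and Cysltr1 (-2.31), while the prostaglandin E2 receptor Ptger4 rose by 1.57. Of 5 Cd209 lectin genes 4 were lower and none higher, at a median of -3.34, and Cd209e went from 471 counts over the 3 libraries to 2. All 4 Ypel genes were lower, with Ypel3 at -2.98 and Ypel2 at -2.88, and so were all 3 Rtl8 genes tested, at a median of -3.17; members of these small families are alike in sequence, so reads could be split among them.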
